A study of Xenopus tropicalis with 6 samples.

Results

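The transcriptome of the control neurula was described from the 3 control samples of a series of 6 RNA-seq samples. Each control sample was polyA RNA of whole *Xenopus tropicalis* embryos of the Nigerian line, collected at stage 16 after injection of 10 ng of a control morpholino, an antisense oligo with no intended target. The study set these embryos against embryos injected with splice-blocking morpholinos to *n1-src*, and those 3 samples were not used here. The control samples carried the injected oligo as well, so no sample of an uninjected embryo was described. Each sample was a pool of whole embryos, in which every tissue of the neurula was mixed, and in such bulk samples fewer cells of a type and less RNA per cell cannot be told apart. Levels are given as TPM, the abundance of a gene's transcripts scaled by transcript length and to the same total of 1000000 in every sample, so that levels may be compared between genes. With a single group there was nothing to test, and no p-value is given. Means are given ± SD over the 3 samples, and a list of 3 values follows the order of control samples 1, 2 and 3, which has no meaning beyond their names.

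At the neurula stage the neural plate on the dorsal side folds toward a tube, with the neural crest and the placodes along its border. Beneath it the notochord and the segmenting somites lie in the mesoderm, and on the outside the epidermis makes ciliated, secretory and ion-transporting cells. The heart, the blood vessels, the kidney and the organs of the gut exist at this time only as fields of precursor cells. Maternal transcripts stored in the egg have been replaced in large part by transcripts of the embryo, and many cells still divide.

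The table listed 23634 genes. A mean of at least 1 TPM, called expressed in the following, was reached by 13142 genes, or 55.6% of those listed, and 12245 of them reached 1 TPM in every sample. A further 2809 genes were listed at 0 in all 3 samples. At the other end 191 genes had a mean of at least 1000 TPM. The 100 genes of highest mean held 35.1 ± 0.925% of the summed TPM, and 215 genes held 50% of it. The median coefficient of variation (CV, the SD as a percentage of the mean) over expressed genes was 18.104%. It was 22.8% for genes between 1 and 10 TPM and 14.4% for genes of at least 1000 TPM. Over all expressed genes it was 14.5%, 18.9% and 11.6% without samples 1, 2 and 3 in turn. These values rest on 2 samples each and are not directly comparable with the CV over 3. Levels correlated across the expressed genes, with Spearman's rho between 0.950 (samples 1 and 3) and 0.969 (samples 2 and 3), as a description over genes of libraries that share one annotation. Names that begin with LOC or Xetrov, given to genes without a symbol, made up 8573 of the listed genes. Of these 27.2% were expressed, against 71.8% of the genes with another name, and they held 9.63 ± 0.656% of the summed TPM.

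**Figure D1:**
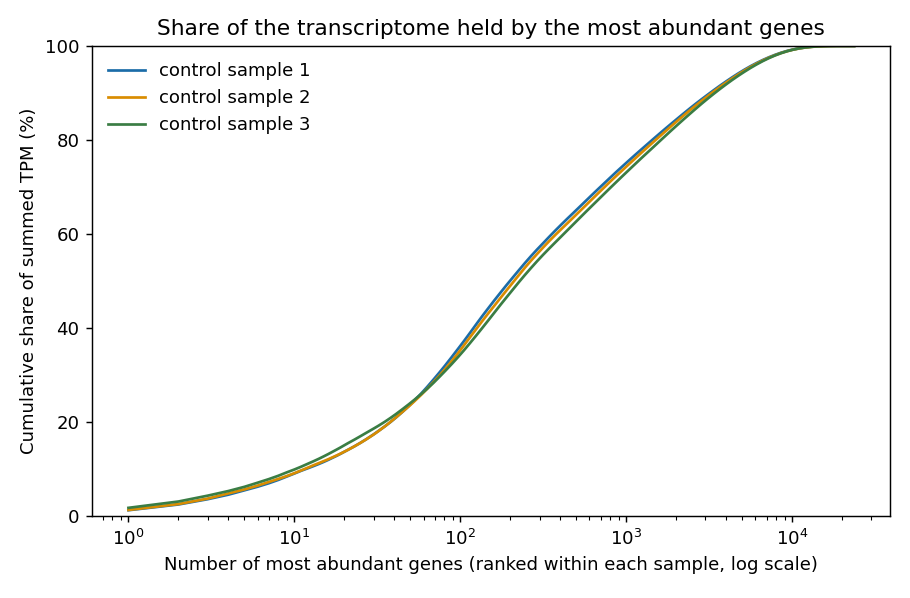
Cumulative share of the summed TPM (vertical axis, percent) held by the most abundant genes (horizontal axis, number of genes on a log scale, ranked within each sample), with a line for each control sample. The 3 lines lie close together, and for the 100 genes of highest mean the shares were 35.9%, 35.3% and 34.1%.

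RNA-binding proteins, chromatin proteins, elongation factors and keratins made up the head of the transcriptome. The most abundant gene was *cirbp*, which encodes a cold-inducible RNA-binding protein, at 12845, 13378 and 17908 TPM. It was followed by *hmgb2*, a high mobility group protein of chromatin, at 12194, 12546 and 12427 TPM, the same level in all 3 samples within a CV of 1.44%. Translation elongation factor 1-alpha came from a pair of genes of similar level, *eef1a1* at 11224, 11613 and 13441 TPM and *eef1a1o*, its oocyte form, at 9297, 11086 and 9855 TPM. The transcripts of such close paralogs can share reads, so that the split between them is uncertain. An unnamed locus, LOC100493542, which RefSeq classes as a long noncoding RNA, had 8280.1 ± 1163 TPM and stood among the 10 most abundant genes.

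Of the 25 genes of highest mean, 5 were keratins, 4 were cytosolic ribosomal proteins, 3 were high mobility group proteins and 2 were hnRNP proteins, which package and process pre-mRNA. The keratins, intermediate filament proteins of epithelia, were *krt* (8143 TPM), LOC549413 (RefSeq symbol *krt12.3*, 6591 TPM), *krt5.7* (4703 TPM), *krt18* (4315 TPM) and *krt8* (3983 TPM). The hnRNP genes were *hnrnpa1* (8233 TPM) and *hnrnpab* (4159 TPM), and a further RNA-binding protein gene, *rbm6*, had 5967 ± 520.4 TPM. Chromatin was also represented by the histone variant gene *h2afz* (6435 ± 679 TPM) and by *hmgn2* and *hmgn1* (5338 TPM and 4086 TPM). The remaining places were held by the cytoplasmic actin gene *actg1* (4779.5 TPM), LOC734001 (RefSeq symbol *ptmap12*, 4243 TPM), the constitutive chaperone gene *hspa8* (4041 TPM), the Y-box protein gene *ybx1* (3717 TPM) and *slc25a5*, the mitochondrial ADP/ATP carrier (3628 TPM), beside *rpl37* (5954 TPM), *rplp1* (3996 TPM), *rps25* (3953 TPM) and *rpl37a* (3819 TPM). The order was not sharp. Only 4 of the 25 exceeded the next gene in every sample (*cirbp*, *eef1a1*, *krt* and *rps25*), and the other neighbours changed places in at least 1 sample.

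Lists of marker genes for the tissues of the neurula, for earlier stages and for mature organs were set against all listed genes. The lists were chosen with earlier results of these data known, so their shares and medians are descriptions and test nothing. Of 459 genes in 19 tissue lists, 373 (81.3%) were expressed. The share was 55.6% of all listed genes and 71.8% of those without a LOC or Xetrov name, which is the closer comparison. The lists of hatching gland (50%), blood and endothelium (57.5%), pronephros (64%) and heart (66.7%) lay below 71.8%. The hatching gland share rests on 2 of 4 genes, since 6 of the 10 names written for it, among them hatching enzyme names, were not listed. Of 215 genes in 8 lists of mature organs, 53 (24.7%) were expressed. The median mean level was 15.5 TPM over the tissue lists, 0.186 TPM over the mature lists and 1.8 TPM over all listed genes. On the scale of log2(TPM + 0.5), where the median of all listed genes was 1.15, 18 of the 19 tissue lists had a median above it and 0 of the 8 mature lists did. The tissue list below it was that of blood and endothelium, at 0.63. The median of all listed genes includes the LOC and Xetrov names, and a median over the other names, the closer comparison, was not computed. A gene may stand in several lists, and 47 of the tissue genes did.

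**Figure D2:**
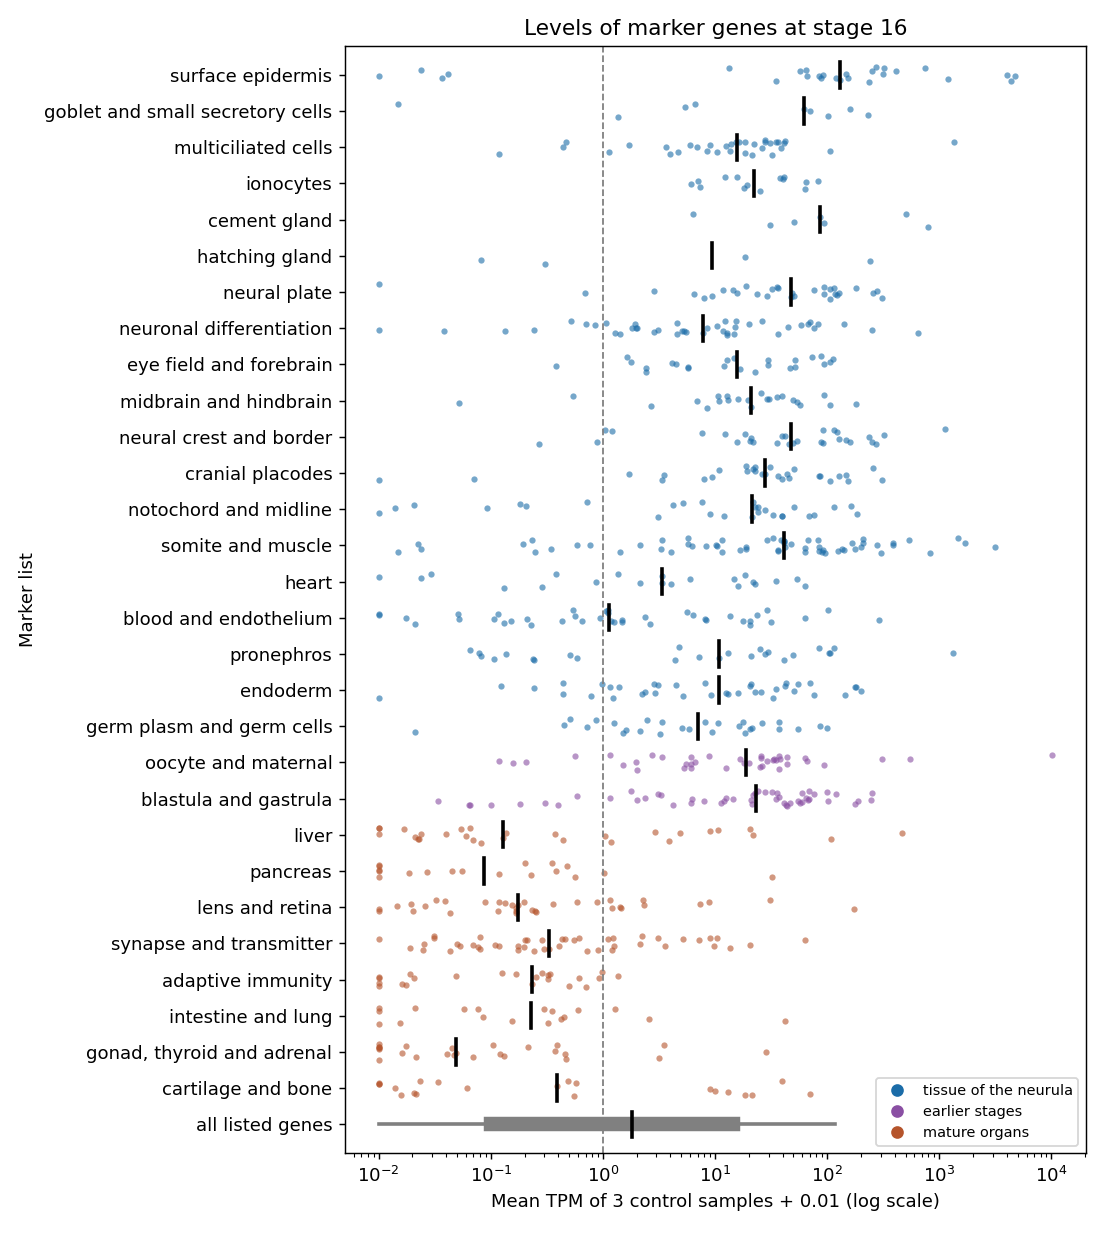
Mean TPM plus 0.01 over the 3 control samples (horizontal axis, log scale) of each gene in the lists for tissues of the neurula, earlier stages and mature organs, with 1 point per gene, a black bar at the list's median and a dashed line at 1 TPM. The bottom row shows all listed genes, with the thick bar from the 25th to the 75th percentile and the thin line from the 5th to the 95th, and the lists of mature organs sit to the left of the tissue lists.

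Of the ectoderm, the surface epidermis had the highest levels, with 23 of 27 listed markers expressed and a median of 129 TPM. After the keratins the most abundant was *epcam*, an adhesion molecule of epithelia, at 924, 1323 and 1362 TPM. Transcription factors of the epidermis were lower than the keratins, such as *tfap2c* (250.3 ± 47.5 TPM), *tfap2a* (236 ± 11.2 TPM), *dlx3* (149 ± 13.2 TPM), *grhl3* (121 ± 35.6 TPM) and *tp63* (66.6 ± 4.35 TPM), a regulator of the basal layer. The adhesion molecule gene *cdh1* (E-cadherin) had 129 ± 47.05 TPM and the desmosomal protein gene *dsp* 57.02 ± 5.29 TPM. The most variable expressed markers were the transcription factor gene *klf5*, at 24.8, 25.7 and 54.8 TPM, and *krt5.7*, at 2810.1, 4061 and 7239 TPM, both highest in sample 3. Other keratin names of the list differed widely, from *krt19* at 515, 757 and 978 TPM and *krt8.2* at 13.3 ± 3.59 TPM to *krt5.2* and *krt15* at 0.0268 and 0.0313 TPM, with *krt5.5* listed at 0 in all 3 samples. Keratin paralogs may share reads.

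The specialised cells of the epidermis were represented as well. Among ionocyte markers, 14 of 14 were expressed, including the transcription factor genes *foxi1* (55.8, 62.1 and 72.8 TPM) and *ubp1* (41.5 ± 4.94 TPM), the proton pump subunit genes *atp6v1g3* (82.6 ± 14.4 TPM) and *atp6v1b1* (25.1 ± 0.76 TPM) and the anion exchanger gene *slc26a4* (40.5 ± 6.27 TPM). Among markers of goblet and small secretory cells, 8 of 9 were expressed, led by *itln1*, a secreted lectin, at 231, 272 and 191 TPM. The vesicular monoamine transporter gene *slc18a2* had 62.4 ± 5.67 TPM, whereas *tph1*, which encodes the first enzyme of serotonin synthesis, had 1.35 ± 0.586 TPM and the mucin-like gene *otogl* 0.0049 TPM.

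Multiciliated cells, which move fluid over the skin, had 31 of 34 of their listed markers expressed. The regulators *mcidas* (33.1, 33.9 and 48.2 TPM), *ccno* (26.4, 28.2 and 51.2 TPM), *foxj1* (15.96, 16.8 and 30.7 TPM) and *rfx2* (36.5 ± 7.34 TPM) all lay above 10 TPM, and *myb* and *tp73* at 5.98 and 3.66 TPM. Structural genes of the axoneme ranged from *rsph9*, a radial spoke protein (107 ± 12.9 TPM), through *spag6*, of the central pair (42.2 ± 11.2 TPM), *tekt2*, a tektin (31.1 ± 8.3 TPM), and *dnai2*, a dynein intermediate chain (18.4 ± 6.76 TPM), to the dynein heavy chain genes *dnah9* (3.94 ± 1.34 TPM) and *dnah5* (1.11 ± 0.187 TPM). At the lower end *gmnc*, which acts at the head of the programme, had 0.108 TPM. The highest of the 34 listed names was the tubulin gene *tuba4b* (1357 ± 52.8 TPM), which alone made up most of the list's sum. Of the 31 expressed markers 25 were highest in sample 3, against 46.6% of all expressed genes, and the most variable, *spata18*, had 16.6, 17.6 and 48.98 TPM.

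The cement gland, the adhesive organ at the front of the tadpole, was marked by *agr2* at 1006, 622 and 773 TPM and *ag1* at 482, 440.5 and 605 TPM, and 7 of 7 of its listed markers were expressed. Sample 2 had the lowest level of both genes. The hatching enzyme gene *uvs.2* had 156, 246 and 319 TPM, lowest in sample 1 and highest in sample 3, and *prdm1*, a transcription factor of the neural border that is listed with it, 18.5 ± 2.73 TPM. The other listed hatching gland names, *ctsk* and *hpx*, were below 1 TPM at 0.295 and 0.0719 TPM.

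Neural plate markers were expressed in 29 of 31 cases, with a median of 47.5 TPM. Of the SoxB1 genes, which keep neural cells as progenitors, *sox3* had 254, 283 and 389.9 TPM, *sox2* 278, 247 and 244 TPM and *sox1* 16.5, 8.24 and 10.9 TPM. *sox3* and *sox2* changed places between samples, since sample 3 was highest for *sox3* and lowest for *sox2*, and *sox1* was below both in every sample. The inhibitor of replication licensing *gmnn* had 275 ± 47.4 TPM and the homeobox gene *meis3* 181 ± 2.68 TPM, the latter with a CV of 1.48%. The Iroquois prepattern genes *irx3*, *irx1* and *irx2* had 116, 106 and 50.4 TPM, and the zinc finger gene *zic2* 76.4 TPM. The RNA-binding protein gene *lin28a*, a repressor of let-7 maturation, was the most variable member of the list above 1 TPM, at 9.42, 16.3 and 45.7 TPM. Below 1 TPM lay *pou3f4* (0.68 TPM), and *foxd4l1.2* was listed at 0.

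Genes that mark regions of the plate from front to back were expressed, although values of whole embryos do not place them. In the forebrain and eye field, 23 of 24 were expressed, the highest of them *tcf7l1*, a repressor of Wnt targets (112 ± 11.3 TPM). They included *pax6* (101, 84.6 and 136 TPM), *otx2* (80.5, 82.5 and 120.4 TPM), *rax* (64.3, 54.3 and 100.4 TPM) and *six3* (66.2, 44.9 and 45.4 TPM), transcription factors that specify the anterior plate and the eye. Genes of ventral and later forebrain fields were lower, with *nkx2-1* at 5.41, 2.4 and 5.66 TPM, *vax1* at 2.39 ± 0.857 TPM and *lhx9* at 0.372 TPM. Sample 2 was lowest of the 3 for *nkx2-1* and *vax1*.

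In the midbrain and hindbrain list, 21 of 23 were expressed. Among genes known from the boundary between midbrain and hindbrain, the signalling molecule gene *fgf8* had 57.3 ± 4.43 TPM. The factors *gbx2.2* and *gbx2.1* had 53.7 ± 2.66 TPM and 49.4 ± 3.63 TPM, *pax2* 7.82, 6.62 and 17.7 TPM, *en2* 9.98, 4.06 and 11.4 TPM and *wnt1* 6.95 ± 1.71 TPM. By contrast *en1* had 0.532 ± 0.0253 TPM and *pax5* 0.0425 ± 0.0237 TPM. The segmental genes of the hindbrain *mafb* and *egr2* had 29.3 ± 1.14 TPM and 10.5 ± 2.07 TPM. Levels of the genes known from the boundary thus ran from above 10 TPM to below 1 TPM in the same samples. Values of whole embryos do not place them at the boundary, and *fgf8*, *gbx2.2* and *pax2* also stood in lists of other tissues or stages.

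Neuronal differentiation was represented along its steps. In this list 36 of 43 genes were expressed, with a median of 7.83 TPM. The cell cycle inhibitor gene *cdknx*, which takes part in the exit of neuronal and muscle precursors from division, was the highest at 642, 651 and 659 TPM, with a CV of 1.26%. Notch pathway members that select precursors, *hes6.1*, *dlc* and *dll1*, had 251, 140.4 and 82.2 TPM. *dlc* and *dll1* also stood in the list of somites and muscle, and values of whole embryos do not separate these tissues. The proneural gene *neurog1* had 46.6, 32.5 and 31.1 TPM and *neurog2* 12.7 ± 0.92 TPM, while *atoh1* had 1.04 ± 0.407 TPM. Downstream, *neurod4* had 16.7, 12.1 and 16.4 TPM and *neurod1* 5.82, 3.18 and 6.09 TPM, and *myt1*, a zinc finger protein of early neurons, 56.2, 38.7 and 40.5 TPM.

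Among the markers of neurons themselves levels differed widely. The RNA-binding protein gene *elavl3* had 83.4, 57.7 and 70.7 TPM, its paralog *elavl4* 1.28, 0.609 and 0.638 TPM. The neuronal tubulin gene *tubb2b* had 69.3, 70.9 and 86.4 TPM and *tubb3* had 11.6, 11.5 and 15.1 TPM, with sample 3 the highest for both. The intermediate filament gene *prph* (peripherin) had 60.2, 55.4 and 86.8 TPM. The neurofilament genes *nefl* and *nefm* had 1.99 ± 0.869 TPM and 1.41 ± 0.546 TPM, the growth cone genes *stmn2* and *gap43* 1.27 ± 0.512 TPM and 0.506 ± 0.0800 TPM, and *atoh7*, a gene of retinal ganglion cells, was listed at 0. Transcription factors of motor and sensory neurons, *mnx1*, *isl1* and *tlx3*, had 11.7 ± 1.1 TPM, 14.8 ± 5.29 TPM and 5.23 ± 1.38 TPM.

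For *src*, the gene whose neural isoform the study targeted, the gene level in the control samples was 18.7, 25.8 and 49.2 TPM, a CV of 51.2%. Sample 3 exceeded the other 2, and the table does not separate the isoforms. The ribosomal protein gene *rpl8*, used widely as a reference gene in *Xenopus*, had 2016, 1973 and 1696 TPM, a CV of 9.18%.

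At the border of the plate, 28 of 30 neural crest markers were expressed, with a median of 47.7 TPM. The highest was *id3*, an inhibitor of helix-loop-helix factors, at 1143, 1096 and 1134 TPM, followed by the Hairy-related repressor *hes4* (367, 332 and 269.99 TPM). Specifiers of the crest had lower means, with *snai1* at 242, 284 and 299 TPM, *twist1* at 169, 147 and 164 TPM, *foxd3* at 108, 81.2 and 87.2 TPM, *snai2* at 92.3, 75.1 and 98.5 TPM and *sox9* at 37.7, 37.5 and 44.2 TPM. In sample 3 *snai1* stood above *hes4*. The SoxE genes were ordered *sox9*, *sox10* (20.8, 9.93 and 15.8 TPM) and *sox8* (9.93, 11.3 and 15.8 TPM), and *sox10* and *sox8* overlapped between samples. *tfap2b* was the member of the largest spread among those above 10 TPM, at 35.1, 13.1 and 17.1 TPM, highest in sample 1. Border genes *msx1* and *pax3* had 252 ± 22.9 TPM and 45.7 ± 3.87 TPM, whereas *pax7* had 0.866 ± 0.149 TPM. The endothelin receptor genes *ednra* and *ednrb*, which migrating crest cells use, had 1.19 ± 0.63 TPM and 1.04 ± 0.378 TPM.

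Placode markers were expressed in 27 of 29 cases and varied little, with a median CV of 11.7% over the expressed members. The panplacodal gene *eya1* had 21.8, 19.7 and 26.7 TPM, while its paralog *eya4* was listed at 0 and the homeobox gene *six2* had 0.061 TPM. An early gene of the otic and kidney fields, *pax8*, had 27.7 ± 2.21 TPM. Genes of the lens placode, *foxe3* and *pitx3*, had 3.32 ± 0.374 TPM and 1.7 ± 0.476 TPM.

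Somites and muscle gave the highest levels of the mesoderm. In this list 52 of 61 genes were expressed, and 17 of them had at least 100 TPM. The cardiac alpha-actin gene *actc1*, which is the main actin of embryonic muscle in *Xenopus*, had 2799.6, 3719.6 and 2809.9 TPM. The myosin light chain gene *mylpf* had 1831, 1904 and 1309.8 TPM and *myl1* had 1718, 1626 and 1036 TPM, and the tropomyosin gene *tpm1* had 895, 931 and 646 TPM. Sample 3 was the lowest for *mylpf*, *myl1* and *tpm1*. The myogenic factors differed in level, with *myod1* at 421, 423 and 325 TPM, *myf5* at 163, 227 and 213 TPM, *myog* at 6.62, 4.43 and 6.02 TPM and *myf6* at 6.24, 4.58 and 6.34 TPM. In none of the samples did *myog* or *myf6* reach 10 TPM, while *myod1* and *myf5* lay above 100 TPM in all 3.

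Genes of the presomitic mesoderm and the forming segments were expressed beside the contractile genes. They included *msgn1* (149, 220.2 and 166 TPM), *mespb* (40.99 ± 4.52 TPM), *mespa* (38.4 ± 3.89 TPM), *ripply2.1* (84.98 ± 6.55 TPM), *hes7.1* (36.4 ± 4.66 TPM) and *lfng* (41.3 ± 5.65 TPM), components of segmentation, and *tcf15* (348, 291 and 197 TPM), a gene of the somite epithelium. Of the genes of the sclerotome, which forms the vertebrae, *pax1* and *pax9* had 0.755 ± 0.166 TPM and 0.582 ± 0.187 TPM, while *uncx* had 16.5 ± 4.02 TPM. Troponins of fast muscle had 518, 397 and 236 TPM (*tnnt3*) and 45.7, 34.9 and 18.2 TPM (*tnnc2*), both highest in sample 1 and lowest in sample 3. Genes of muscle fibres differed widely in level. The calcium pump gene *atp2a1* had 480.2, 559.8 and 562 TPM, the glycogen phosphorylase gene *pygm* 253, 278 and 381 TPM and the myosin heavy chain genes *myh8* and *myh4* 91.8 ± 18.7 TPM and 47.8 ± 14.03 TPM, and the creatine kinase gene *ckm* and the calcium release channel gene *ryr1* had 11.6 ± 0.992 TPM and 11.5 ± 1.29 TPM. At the low end *casq1* had 0.224 TPM, *mybpc1* 0.0137 TPM and *myh7* 0.005 TPM. The skeletal alpha-actin name *acta1* had 0.182 TPM, and reads of close actin paralogs may be shared with *actc1*.

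In the notochord and midline list, 21 of 28 genes (75%) were expressed, near the 71.8% of all genes without a LOC or Xetrov name. The homeobox gene *not* had 111, 136 and 94.9 TPM, the ligand gene *shh* 44.9, 35.7 and 39.1 TPM, the BMP antagonist gene *chrd* 48.6, 70.6 and 87.05 TPM and the collagen gene *col2a1* 183, 153 and 157 TPM. The T-box gene *tbxt* (brachyury), active in the notochord and the tail bud, was the most variable of the expressed members, at 10.1, 25.6 and 47.1 TPM, lowest in sample 1 and highest in sample 3. The cartilage matrix genes *acan* and *hapln1* had 0.004 and 0.0105 TPM, whereas the collagen gene *col9a1*, listed with them, had 8.94 ± 1.28 TPM. *ptgds* was listed at 0.

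Heart markers divided into early regulators and contractile genes. Of the list 14 of 21 (66.7%) were expressed, below the 71.8% of all genes without a LOC or Xetrov name, and none reached 100 TPM. The regulators *gata6*, *gata5* and *gata4*, which act in the heart and the endoderm, had 34.8 ± 6.3 TPM, 22.7 ± 1.22 TPM and 15.9 ± 3.53 TPM. The cardiac homeobox gene *nkx2-5* had 22.03, 12.8 and 20.2 TPM and *hand1*, a helix-loop-helix gene of the lateral mesoderm, 54.2 ± 3.03 TPM. The T-box genes *tbx20* and *tbx5* had 0.851 ± 0.325 TPM and 0.278 ± 0.124 TPM. The contractile genes of the list above 1 TPM were *myh6* (4.01 ± 0.835 TPM), *tnni3* (3.39 ± 0.444 TPM) and *myl4* (1.37 ± 0.692 TPM). Other contractile and secreted products of the heart were near 0, with *myl7* at 0.12 TPM, *nppa* at 0.0194 TPM, *tnnt2* at 0.0139 TPM and *bmp10* listed at 0.

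Of the genes of blood and endothelium 23 of 40 (57.5%) were expressed. The share was 55.6% of all listed genes and 71.8% of those without a LOC or Xetrov name, the closer comparison, below which this list lay. At a minimum of 5 TPM the count was 14. The highest was *gata2*, which acts in blood precursors and also in the ventral epidermis, at 305, 314 and 249 TPM, followed by the apelin receptor gene *aplnr* (101 ± 10.6 TPM). Further regulators of the precursors were *lmo2* with 31.8 ± 1.95 TPM, *etv2* with 20.4 ± 3.15 TPM and *tal1* with 13.6 ± 1.78 TPM. Genes of myeloid cells differed, with the peroxidase gene *mpo* at 49.2, 35.5 and 104 TPM, *spib* at 22.6, 17.97 and 46.7 TPM and *cebpa* at 10.6, 10.9 and 31.9 TPM, each highest in sample 3, whereas *spi1* and the receptor gene *csf1r* had 0.0961 and 0.201 TPM. The red cell regulator and globin genes were low, *gata1* at 0.0075 TPM, *hbg1* and *hba1* at 1.09 ± 0.853 TPM and 1.16 ± 0.941 TPM, and *hbg2* listed at 0. Of the endothelial genes, the transcription factor genes *sox18* and *sox7* had 23.7 ± 0.597 TPM and 20.5 ± 7.79 TPM, while the receptor genes *kdr* and *tie1* had 1.48 ± 0.259 TPM and 0.549 ± 0.175 TPM and the junction gene *cdh5* 0.011 TPM.

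Pronephros markers were expressed in 16 of 25 cases (64%), below the 71.8% of all genes without a LOC or Xetrov name. Regulators of the kidney field, *pax8*, *lhx1* and *osr2*, had 27.7, 20.8 and 49.6 TPM. Among genes of the differentiated filter and tubule, the transporter gene *slc12a1* had 4.39 ± 0.426 TPM and others were near 0, with *nphs1* at 0.0713 TPM, *slc5a2* at 0.0689 TPM and *slc12a3* at 0.055 TPM.

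Of the endodermal list 31 of 38 genes were expressed. The endodermal determinants were *sox17a*, at 106, 170.4 and 159 TPM, and *sox17b.1*, at 16.6, 53.8 and 58.9 TPM, both lowest in sample 1. The highest member was *darmin*, a peptidase gene of the endoderm, at 186, 238 and 180.4 TPM. The Caudal genes, which are active in the posterior of the embryo, were led by *cdx4* at 139, 193 and 206 TPM and *cdx2* at 135, 177 and 224 TPM, and *cdx1* had 22.5, 46.2 and 56.4 TPM. All 3 were again lowest in sample 1. The foregut genes *hhex* and *nkx2-1* had 8.08 ± 2.19 TPM and 4.49 ± 1.81 TPM. Genes of the pancreatic and hepatic buds, *pdx1*, *ptf1a* and *hnf4a*, had 0.433 ± 0.156 TPM, 0.233 ± 0.0454 TPM and 1.37 ± 0.512 TPM. Of the expressed endodermal genes 21 of 31 were highest in sample 3, against 46.6% of all expressed genes.

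Germ cells are few in number, and genes of the germ plasm and germ cells were represented in whole embryos. Their list also held genes of other lists, such as *pou5f3.1* and *otx1* (means of 99.9 and 85.6 TPM). Its count is therefore not one of germ cell transcripts alone. Of this list 23 of 28 were expressed, with the helicase gene *ddx4* (vasa) at 59.1, 51.1 and 53.6 TPM, the RNA-binding protein gene *dazl* at 10.8, 21.7 and 31.3 TPM, *ddx25* at 9.89, 16.6 and 22.6 TPM and *dnd1* at 3.33 ± 1.54 TPM. *nanos1* had 0.861 ± 0.29 TPM and the Piwi genes *piwil2*, *piwil1* and *piwil4* had 3.2 ± 0.0831 TPM, 0.716 ± 0.486 TPM and 0.011 ± 0.019 TPM.

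Hox genes, which pattern the body axis in the order of their clusters, were nearly all expressed. Of 34 listed Hox genes 31 had at least 1 TPM and 24 at least 10 TPM. The highest were *hoxb8* at 125, 136 and 115 TPM, *hoxc6* at 101, 117 and 81.3 TPM and *hoxd1* at 81.2, 107 and 93.99 TPM. *hoxb8* was the highest in every sample, while *hoxc6* and *hoxd1* changed places between samples. By position in the clusters, the 9 genes of paralog groups 1 to 3 had a median of 25.9 TPM, the 17 genes of groups 4 to 9 a median of 35.9 TPM, and the 8 genes of groups 10 to 13 a median of 3.43 TPM. Summed TPM of the groups 4 to 9 was 685, 789 and 672, and that of groups 10 to 13 was 58.04, 57.97 and 46.6. Single genes of these groups overlapped in level, since *hoxc10* stood above *hoxa6* in every sample.

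Neighbours within a cluster differed widely. In the A cluster *hoxa7* (65.1 ± 8.3 TPM), *hoxa3* (35.6 ± 1.58 TPM) and *hoxa2* (19.6 ± 4.91 TPM) stood above *hoxa11* (10.5 ± 0.775 TPM), *hoxa5* (8.69 ± 1.79 TPM), *hoxa4* (5.3 ± 0.637 TPM), *hoxa6* (2.68 ± 0.589 TPM) and *hoxa13* (0.386 ± 0.0963 TPM). In the B cluster levels went from *hoxb8*, *hoxb9* (72.5 ± 11.5 TPM) and *hoxb7* (49.04 ± 10.1 TPM) through *hoxb6* (35.9 ± 4.34 TPM), *hoxb4* (33.4 ± 4.09 TPM), *hoxb3* (41.6, 29.1 and 21.9 TPM) and *hoxb2* (16.03 ± 4.17 TPM) to *hoxb1* (8.06, 11.5 and 18.9 TPM) and *hoxb5* (6.36 ± 1.89 TPM). The C cluster held *hoxc4* (73.3 ± 5.94 TPM), *hoxc9* (60.4 ± 8.06 TPM), *hoxc8* (42.2 ± 7.76 TPM), *hoxc10* (21.5 ± 6.1 TPM), *hoxc5* (18.7 ± 5.99 TPM), *hoxc3* (15.5 ± 4.46 TPM) and *hoxc11* (5.11 ± 0.46 TPM) beside *hoxc6*, with *hoxc13* and *hoxc12* below 1 TPM at 0.886 and 0.32 TPM. In the D cluster *hoxd1* stood above *hoxd3* (25.9 ± 1.14 TPM), *hoxd10* (13.8 ± 0.243 TPM), *hoxd8* (11.1 ± 2.91 TPM), *hoxd9* (5.19 ± 0.142 TPM) and *hoxd13* (1.76 ± 0.606 TPM). The anterior genes did not vary in one direction. *hoxb1* was highest in sample 3, while *hoxb2*, *hoxb3* and *hoxa2* were highest in sample 1.

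**Figure D3:**
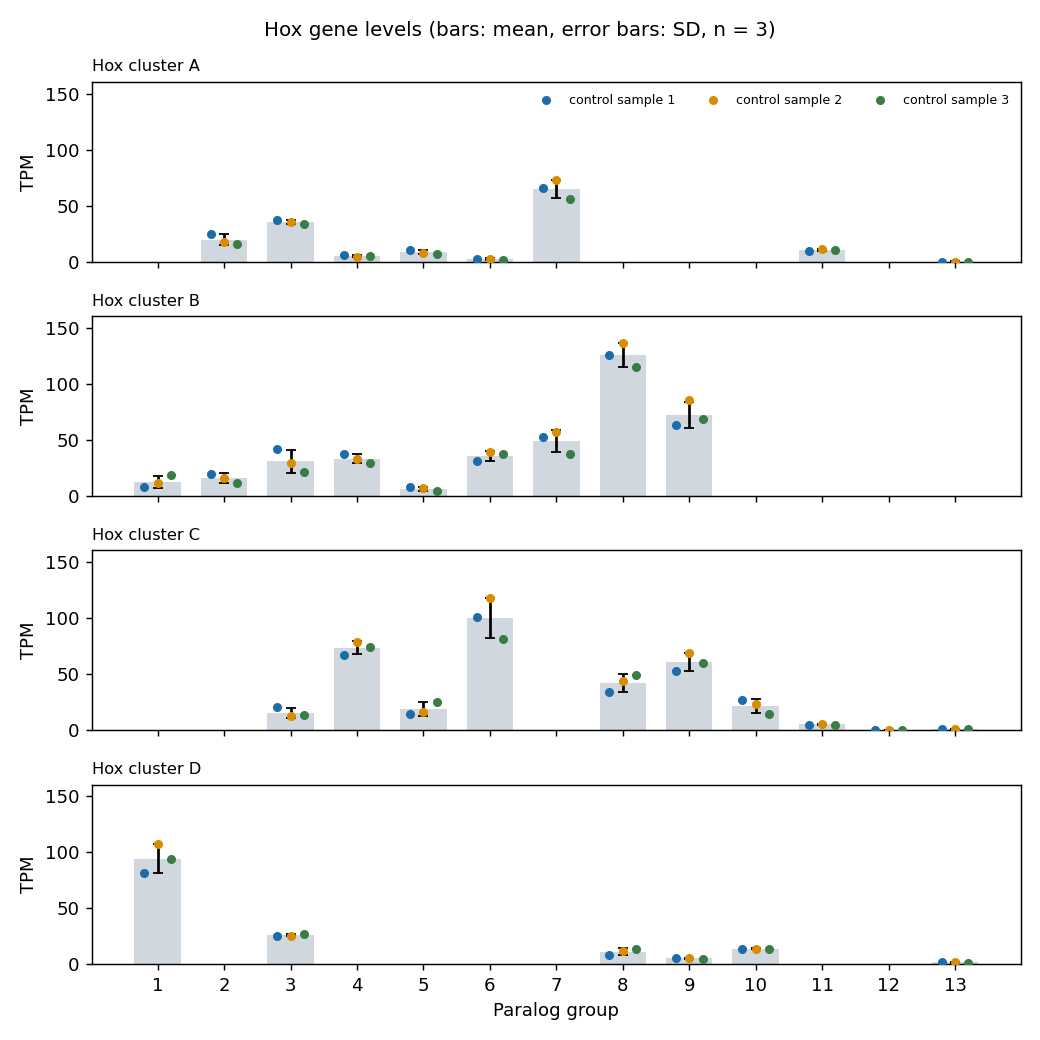
TPM (vertical axis) of Hox genes by paralog group (horizontal axis), with a panel for each cluster, bars at the mean of the 3 control samples, error bars for the SD and points for the samples. A position with no bar is one for which no gene is shown, and the genes of groups 10 to 13 had a highest mean of 21.5 TPM (*hoxc10*), against 126 TPM in groups 4 to 9 (*hoxb8*).

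Genes used in the egg and the early embryo were still represented. Of the list of oocyte and maternal genes 36 of 40 were expressed, and 3 of them reached 100 TPM (*eef1a1o*, *ccnb1.2* and *sox3*). This list also held genes of other lists, such as *sox3* of the neural plate (mean of 309 TPM) and *ccnb1.2* of the cell cycle. Its count is therefore not one of stored egg transcripts alone. The cyclin gene *ccnb1.2* had 544 ± 40.5 TPM, the oocyte Y-box gene *ybx2* 67.6, 71.9 and 57.5 TPM and the histone chaperone gene *npm2* 29.4, 42.5 and 28.1 TPM. Egg envelope genes were found, with *zpd* at 35.6, 40.2 and 55.5 TPM and *zp4* at 31.8, 42.1 and 57.4 TPM, both lowest in sample 1. The meiotic kinase gene *mos* had 1.99 ± 0.10 TPM, the oocyte elongation factor *42Sp50* 3.37 ± 0.797 TPM, and the oocyte growth factor genes *gdf9* and *bmp15* 0.148 and 0.109 TPM.

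In the blastula and gastrula list, 44 of 52 genes (84.6%) were expressed, against 71.8% of all genes without a LOC or Xetrov name. This list also held genes of the neurula lists, such as *grhl3* of the epidermis, *zic2* of the neural plate and *msgn1* of the presomitic mesoderm. Its count is therefore not one of earlier stages alone. The highest were the homeobox genes *ventx2.2* (216, 294 and 239 TPM) and *ventx2.1* (189, 303 and 251 TPM), targets of BMP signalling on the ventral side, and *bambi*, a BMP pseudoreceptor gene (189.9 ± 19.8 TPM). The ligand gene *wnt8a* had 52.9, 74.3 and 52.1 TPM and the pluripotency factor *pou5f3.1* 61.8, 136 and 102 TPM. Sample 2 was the highest for each of these genes. Among genes of the early zygotic response, the Nodal ligand gene *nodal1* had 4.24 ± 0.18 TPM and the homeobox gene *mixer* 1.13 ± 0.518 TPM. Others were near 0, with the dorsal genes *sia1* and *sia2* at 0.0237 and 0.297 TPM and the Nodal ligand genes *nodal5* and *nodal6* at 0.0549 and 0.0535 TPM. *gsc*, an organiser gene that is also expressed in the later head, had 39.5, 39.9 and 27.5 TPM. Of the 44 expressed genes 28 were highest in sample 2, against 22.1% of all expressed genes, and 4 in sample 1, against 31.3%. The expressed member of largest CV was *xmc*, at 9.1, 68.3 and 51.7 TPM.

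Genes of mature organs were mostly low or at 0. In the liver list 11 of 29 were expressed, and the complement gene *c3* (324, 639 and 437 TPM) was the highest. *apob* and *fgg* were listed at 0. In the pancreas list 2 of 18 were expressed, the zinc transporter gene *slc30a8* at 22.9, 28.5 and 45.3 TPM and the lipase gene *pnlip* at 1.32, 0.396 and 1.32 TPM, while *ins* and *gcg*, the genes of insulin and glucagon, were listed at 0. The pancreas count fell to 1 without sample 1 or without sample 3. In the lens and retina list 10 of 35 were expressed. They included *gnb1*, a G protein subunit of many tissues (125, 158 and 240.5 TPM), and the homeobox gene *crx* (30.7 ± 5.24 TPM), and the crystallin genes *cryba2* (9.72, 6.34 and 5.96 TPM) and *crybb3* (1.15 ± 0.526 TPM). Other crystallin genes were below 1 TPM, such as *cryaa* and *crybb1* at 0.107 and 0.166 TPM, as was rhodopsin (*rho*), at 0.347 ± 0.119 TPM.

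Synapse genes were expressed in 16 of 47 cases. The highest was *chrng* at 69.8, 63.6 and 55.1 TPM, a subunit gene of the muscle acetylcholine receptor, of which *chrnd* (23.1, 22.3 and 15.7 TPM) and *chrna1* (8.84, 9.56 and 8.6 TPM) were expressed as well. Genes of the vesicle and its release included *stx1a* at 10.6, 13.7 and 7.09 TPM, highest in sample 2. Highest in sample 1 were *syn1* at 20.5, 8.87 and 11.3 TPM, *vamp2* at 13.95, 6.88 and 8.2 TPM and *snap25* at 4.43, 2.85 and 2.07 TPM. *syt1* was below 1 TPM in every sample, at 0.506, 0.138 and 0.315 TPM. The vesicular acetylcholine transporter gene *slc18a3* had 1.38, 0.996 and 1.32 TPM. Other genes of transmitter synthesis and transport had means below 1 TPM, such as *chat* (0.0151 TPM), *gad2* (0.0698 TPM) and *slc17a6* (0.0598 TPM), for acetylcholine, GABA and glutamate. Of the glutamate receptor genes, *gria2* had 4.08, 3.3 and 3.24 TPM and *gria1* 1.19 ± 0.325 TPM. The others listed, such as *gria3* (0.278 TPM) and *grin1* (0.712 TPM), had means below 1 TPM. The GABA receptor gene *gabrb2* was listed at 0. Of the expressed synapse genes 11 of 16 were highest in sample 1, against 31.3% of all expressed genes.

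The remaining lists held few expressed genes. In adaptive immunity 1 of 23 genes reached 1 TPM, the B cell adaptor gene *blnk* at 1.36 ± 0.454 TPM, and the count was 2 when any 1 sample was left out. The recombinase genes *rag1* and *rag2* had 0.0386 and 0.0074 TPM. Of intestine and lung 3 of 18 were expressed, with *cdx1* again the highest, and *cck* was listed at 0. Of gonad, thyroid and adrenal 3 of 25 were expressed, the pituitary hormone subunit gene *lhb* at 32.1, 24.6 and 29.5 TPM, the synaptonemal gene *sycp1* at 0.805, 6.45 and 3.33 TPM and the hormone subunit gene *tshb* at 3.13 ± 0.545 TPM. *pomc*, *fshb* and *tpo* were listed at 0. Of cartilage and bone 7 of 21 were expressed, among them the collagen gene *col9a3* (89.6, 70.6 and 52.2 TPM), the phosphatase gene *alpl* (20.2, 42.6 and 55.6 TPM) and the zinc finger gene *sp7* (16.01, 14.2 and 33.7 TPM), while *runx2* had 0.0507 TPM and *ibsp* was listed at 0. The order of levels below 1 TPM was not read.

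The cytosolic ribosomal proteins and the translation factors took the largest shares of all the lists. The 81 cytosolic ribosomal protein genes held 16.3% of the summed TPM, with a median of 1965 TPM, and 40 of the 100 most abundant genes belonged to them. Only *rpl3l*, a muscle paralog, was below 1 TPM, at 0.388 ± 0.207 TPM. Translation factors held 4.42% and were expressed in 50 of 50 cases, led after the elongation factors by *tpt1* (3049 ± 589 TPM), *eif4a1* (2799, 2147 and 1924 TPM) and *eif1b* (2159 ± 40.2 TPM). The muscle and nerve form *eef1a2* had 1.83 ± 0.468 TPM. Respiratory chain and ATP synthase genes held 2.2%, and their muscle forms *cox6a2* and *cox7a1* were listed at 0. Spliceosomal snRNP proteins held 1.84%, with *snrpg* at 2541 ± 502 TPM and *snrpb* at 2046 ± 163 TPM, and the proteasome 0.763%, where the immunoproteasome genes *psmb8* and *psmb9* had 0.0545 and 0.0264 TPM.

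Cell division genes were expressed in 50 of 51 cases, with a median of 53.8 TPM. The replication gene *mcm7* had 511, 536 and 587 TPM and *pcna* had 401, 426 and 422 TPM, and the mitotic kinase gene *plk1* 221 ± 4.92 TPM. The cell cycle inhibitor genes *cdkn1a* and *cdkn2c* had 6.55 ± 3.37 TPM and 0.947 ± 0.406 TPM, well below *cdknx*. Of the D cyclins and their kinases, *ccnd1* had 53.8 ± 13.02 TPM and *cdk4* 34.9 ± 6.06 TPM, against 1.79 ± 0.300 TPM for *ccnd2* and 1.49 ± 0.45 TPM for *cdk6*. Of the histone genes, the replication-independent variants *h3f3b* and *h3f3a* had 1557 ± 104 TPM and 1529 ± 219.9 TPM, while the polyA selection used for the libraries takes up few of the replication-dependent histone transcripts, whose ends carry no polyA tail. Among these *hist1h4a* had 144 ± 3.47 TPM and *hist2h3d* 0.157 ± 0.144 TPM.

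In glycolysis, *gapdh* (2284, 2497 and 1627 TPM) and *eno1* (861, 1285 and 1169 TPM) were the highest. The lactate dehydrogenase genes behaved unequally, with *ldha* at 131, 110.4 and 33.8 TPM, highest in sample 1, and *ldhb* at 163, 297 and 281 TPM, lowest in sample 1. The cytoskeleton was led by *actg1*, the profilin gene *pfn1* (3178 ± 292 TPM), *actb* (1764 ± 499 TPM) and the tubulin gene *tubb4b* (1223 ± 135 TPM). Of the genes of the nuclear lamina, *lmnb1* had 344 ± 88.5 TPM against 3.77 ± 0.979 TPM for *lmna*. Of heat shock and chaperonin genes 66 of 83 (79.5%) were expressed, against 71.8% of all genes without a LOC or Xetrov name. Of the stress-inducible genes, *hsp70* had 1.42 ± 0.858 TPM, *hspa1a* 0.0267 TPM and *hsp30d* 0.0207 TPM, whereas the constitutive *hspa8* had 2774, 4309 and 5039 TPM and *hsp90ab1* 769, 853 and 1143 TPM.

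Ratios within a sample, which a common scaling of the sample does not move, were stable for several related genes chosen after their values were seen. The ratio of *tubb2b* to *tubb3* was 5.97, 6.14 and 5.71 in the 3 samples, and the mean log2 ratio of TPM + 0.5 was 2.52 ± 0.05. *irx3* exceeded *irx2* by 2.35, 2.17 and 2.38 times and *itln1* exceeded *itln2* by 2.47, 2.12 and 2.39 times. *cdx4* and *cdx2* lay at ratios of 1.03, 1.09 and 0.921 and *h3f3b* and *h3f3a* at 1.08, 1.05 and 0.941, so that the members of each of these pairs changed places between samples. Other ratios moved. The ratio of *sox3* to *sox2* was 0.915, 1.15 and 1.6, that of *myod1* to *myf5* 2.58, 1.87 and 1.53, that of *sox17a* to *sox17b.1* 6.42, 3.17 and 2.7 and that of *ldhb* to *ldha* 1.24, 2.69 and 8.33.

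The 3 samples were not equal. Of the expressed genes 46.6% were highest in sample 3, 31.3% in sample 1 and 22.1% in sample 2, and the pair of samples 1 and 3 differed the most, with 9.14% of expressed genes more than 2-fold apart. Summed TPM of the ribosomal proteins was 189678, 162682 and 136482 TPM, or 18.97%, 16.3% and 13.6% of the total, and 73 of the 80 expressed members were highest in sample 1. Mitochondrial ribosomal proteins (42 of 72) and respiratory chain genes (49 of 87) were also highest most often in sample 1. The sum of surface epidermis genes (14775, 17459.8 and 21197 TPM) was highest in sample 3, and 14 of the 23 expressed members were highest in it. Much of this sum came from single keratins. *krt5.7* had 2810 TPM in sample 1 and 7239 TPM in sample 3, whereas *krt18* was lowest in sample 3. The sum of cell cycle genes was also highest in sample 3, with 36 of 50 highest in it. Since values add up to the same total in every sample, a class that takes a larger share leaves less for the others. When each sample was scaled to the same median over expressed genes, an alternative chosen after seeing the data, the ratio of the ribosomal protein sum in sample 1 to that in sample 3 was 1.53 in place of 1.39. The cause of these differences was not tested.

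**Figure D4:**
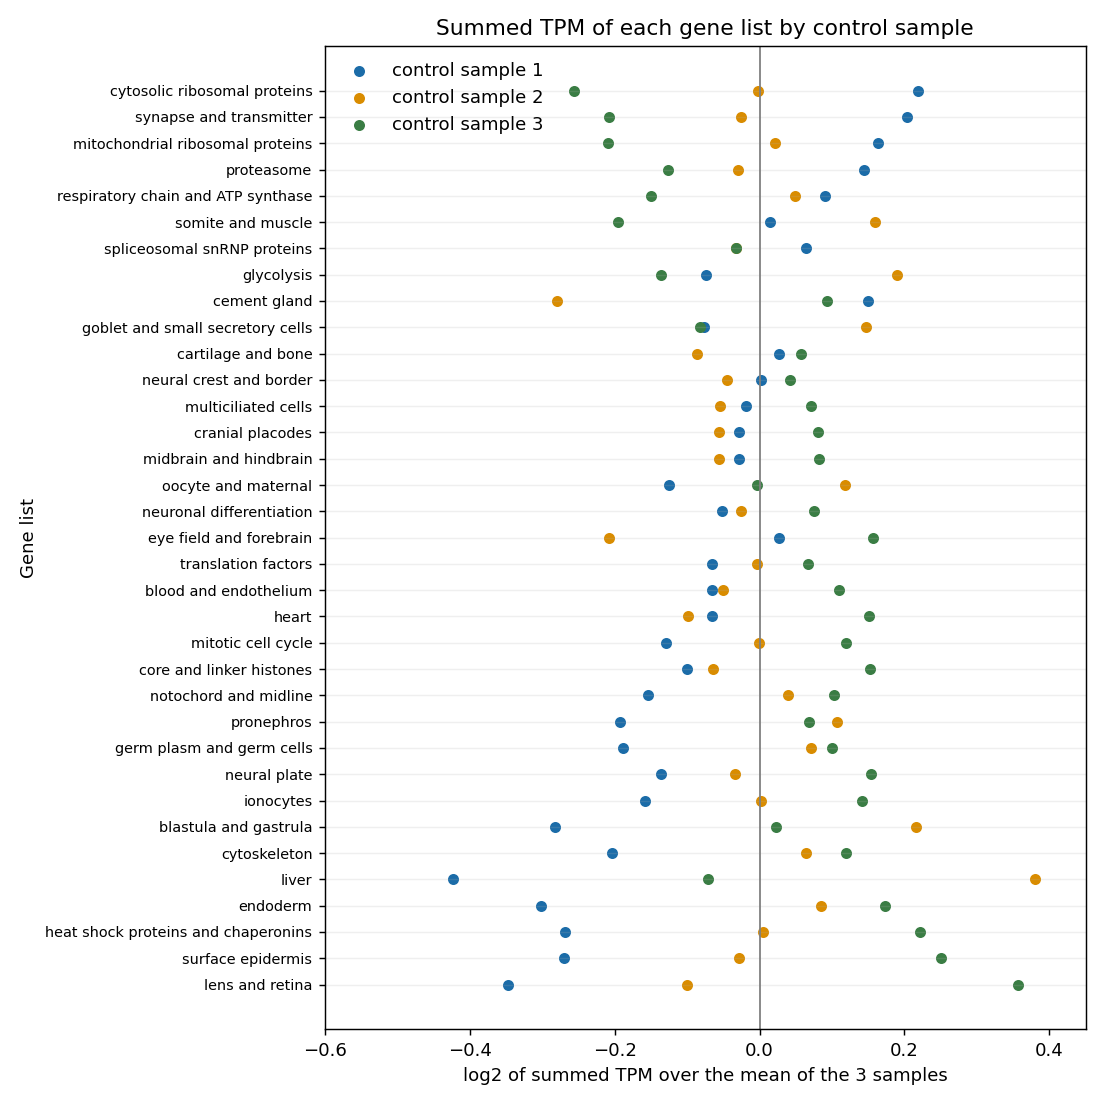
Summed TPM of each gene list in each control sample over the mean of the 3 samples (horizontal axis, log2), for lists with at least 5 expressed genes, ordered by the difference between samples 1 and 3. Ribosomal proteins sit at the top with sample 1 the highest, and surface epidermis and heat shock genes sit near the bottom with sample 3 the highest. A sum is weighted toward its most abundant genes, such as *krt5.7* and *hspa8* (2774 TPM in sample 1 and 5039 TPM in sample 3). Of the 66 expressed heat shock genes 35 were highest in sample 3, against 46.6% of all expressed genes.

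Single genes differed between the samples in both directions. Highest in sample 1 and lowest in sample 3 were the muscle genes *tnnt3* and *tnnc2*, the somite gene *tcf15*, the neurofilament gene *nefm* and the vesicle gene *snap25*. Lowest in sample 1 were *tbxt*, *sox17b.1*, *xmc* and *dazl*. In contrast *cdknx* stayed within 642 and 659 TPM. Sample 1 was also the highest for *tfap2b* and *sox10*, for which sample 2 was the lowest.

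**Figure D5:**
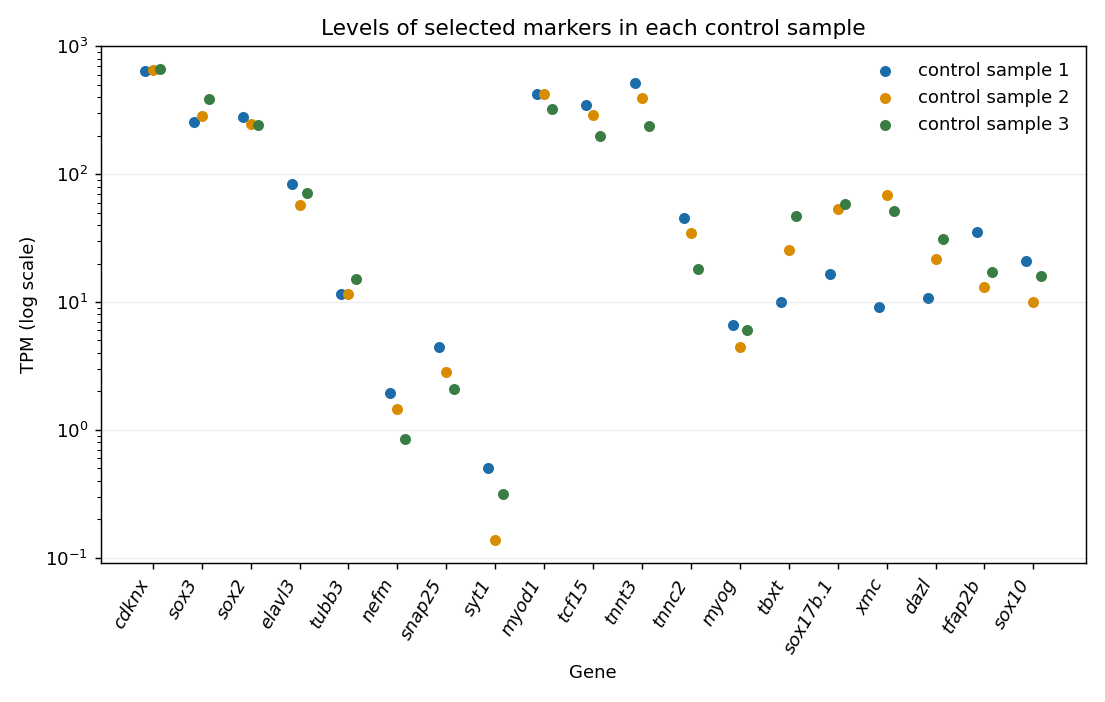
TPM (vertical axis, log scale) of 19 markers chosen after their values were seen, with 1 point for each control sample. The 3 points of *cdknx* lie on each other, whereas *tbxt* had 10.1 TPM in sample 1 and 47.1 TPM in sample 3 and *tnnc2* had 45.7 TPM in sample 1 and 18.2 TPM in sample 3.

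Several of the most variable members of the marker lists were highest in sample 3, as were 46.6% of all expressed genes. Beside *tbxt*, *lin28a*, *klf5* and *spata18*, these were *pax2*, the most variable expressed member of 3 lists (placodes, midbrain and hindbrain, and pronephros), the carbonic anhydrase gene *ca2* of the ionocytes (8.6, 7.9 and 19.9 TPM) and the germ plasm gene *pgat* (2.76, 4.55 and 10.3 TPM). Others had another order, such as the muscle gene *pdlim3* (1.67, 3.75 and 1.01 TPM), highest in sample 2, and *mef2c*, a transcription factor of muscle and heart (5.43, 1.49 and 3.04 TPM), highest in sample 1.

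The genes of largest spread among those of at least 10 TPM with a symbol were *eloc* (65.2, 3.78 and 0.365 TPM), *kiaa0907* (14.6, 53.8 and 1.44 TPM), *irg1* (1.03, 183 and 60.5 TPM), *mir428b* (9.27, 15.3 and 79.1 TPM) and *acod1* (0.579, 96.9 and 36.1 TPM). Their CV lay between 109% and 158%. *irg1* is an older symbol of *acod1*, the gene of the enzyme that makes itaconate, and both names were highest in sample 2 and lowest in sample 1. *mir428b* is the name of a microRNA gene, whose mature product a polyA library does not measure. At the other end, chosen after their values were seen, *rplp0* had 864, 858 and 864 TPM, a CV of 0.401%, although most ribosomal protein genes were highest in sample 1. *nfyb*, a subunit of the CCAAT-binding factor NF-Y, had 134, 135 and 134 TPM and *birc5.2*, a survivin gene of the mitotic spindle, 247, 246 and 244 TPM.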

How the data were processed

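RNA-seq values summed per gene were used for the 3 control samples. The libraries were strand-specific and made from polyA RNA. Adapters were trimmed with cutadapt, as the submitters' processing notes list it. The authors quantified the reads by Salmon against the published transcriptome of the species, version 9.1, and added up the transcripts of each gene. The unit of the table they deposited is TPM. Reads of close paralogs are split between them by estimation. TPM values keep no depth, so no counting interval or detection floor is given, and precision rests on the spread of the 3 samples. The labels do not say whether these came from separate matings. Columns were matched to samples by name, 0 columns matched no sample, and the 3 morphant columns and the authors' group means were left out.

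Means, SD (n = 3), CV and log2(TPM + 0.5) were computed with Python 3.11.15 and pandas 2.3.3, and the summaries were tested on simulated data. Lists of markers and the members described were chosen with earlier results of these data known. Markers whose names were not among the listed genes were left out of the counts, such as 12 of 52 for the oocyte and maternal list. Text names were taken by a rule: the 25 genes of highest mean; markers of the lists, above all the 4 highest, the most variable and those at 0 or lowest; the listed Hox genes; the 5 genes of largest CV among those of at least 10 TPM with a symbol; and *rpl8*, *sox3*, *irx1*, *neurod1*, *tubb2b* and *src*. Of 23634 names, 19344 occur among the symbols of a RefSeq table of another assembly (UCB_Xtro_10.0), so no coordinates are given, and 23 names are numbers and were not assigned to genes. RefSeq symbols of LOC names come from that table. Some genes that this rule names are not reported here. No test was run.

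Alternatives tried were other minimum levels (0.5 and 5 TPM), pseudocounts (0.1 and 1), scaling to a common median and leaving out each sample.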

Additional observations from a re-analysis of the deposited data

How the results depend on the processing

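The number of expressed genes lay between 9170 (at least 5 TPM) and 14595 (at least 0.5 TPM) around the 13142 reported, and between 13103 and 13167 when a sample was left out. The count of genes listed at 0 was 2851 when values below 0.01 TPM were included and 3156 to 3397 with 1 sample left out. The share of the 100 most abundant genes stayed between 34.8% and 35.7% in all alternatives, and 17 or 18 of the 19 tissue lists had a median above that of all genes. The median CV was 18.104%. It was 25.9% with no filter on low values and 16.0% for genes of at least 5 TPM. When a sample was left out it lay between 11.6% (without sample 3) and 18.9% (without sample 2). These values rest on 2 samples each and are not directly comparable with the CV over all samples. Of 40 lists, 9 changed their count of expressed members by more than 1.5 times at 5 TPM, 1 at 0.5 TPM and 2 when a sample was left out (adaptive immunity, from 1 to 2, and pancreas, from 2 to 1), all of them among the heart, blood and mature organ lists. No paired analysis was possible because only 1 group is described and no result comes from a test.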
